A study of Rattus norvegicus with 9 samples.

Results

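The autophagy machinery genes described here are the 40 genes of the table's 20442 whose symbol is Atg followed by a digit, or is on a fixed list of 23 names that covers the ULK and lipid kinase complexes, the LC3 and GABARAP family, cargo receptors, the transcription factors Tfeb and Tfe3, and the tethering subunits Vps11 and Vps18. The rule goes by name and uses no values, but it was chosen with earlier results of these data known. RNA was sequenced from rat bone marrow-derived dendritic cells, primary wild-type cells grown in medium with 10% serum, 20 ng/mL GM-CSF and 20 ng/mL IL-4, in 3 groups of 3 libraries. LPS+EVs cultures received lipopolysaccharide (LPS, bacterial endotoxin sensed through Tlr4) together with extracellular vesicles (EVs) derived from ASCs, LPS cultures received LPS, and Control cultures are labelled as receiving no treatment. The treatment text, which is the same for every sample, gives 1 µg/mL LPS for 24 h and 50 ng/mL of an agent that it does not name, and no EV dose. Which cultures received that agent is not stated, so its effect and that of LPS cannot be told apart in comparisons with Control. If LPS+EVs and LPS cultures differed in the agent, its effect and that of the vesicles cannot be told apart either. Replicates are labelled as biological, but no source states separate animals, and p-values therefore reflect the spread between these libraries.

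Macroautophagy encloses cytoplasm in a double membrane that fuses with lysosomes. The ULK kinase complex starts it, the Vps34 lipid kinase complex marks the membrane with PI3P, Atg9 vesicles and the lipid transporter Atg2 supply lipid, and a pair of ubiquitin-like conjugation systems attaches LC3 and GABARAP proteins to the membrane, where cargo receptors bind them. In dendritic cells the pathway feeds cytosolic material to lysosomes and MHC class II compartments and removes damaged mitochondria, and LPS is a classical inducer of dendritic cell maturation.

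The transcription factors among the genes, Tfeb and Tfe3, bind E-boxes (CACGTG) in promoters of lysosomal and autophagy genes, so the promoters that hold this motif are shown first. RefSeq promoter windows on the rat build GRCr8 ran from 250 bases before to 50 bases after the annotated start. They were matched by gene identifier for 36 of the 40 genes and not for Atg9a, Becn1, Map1lc3a and Rb1cc1. CACGTG, which reads the same on both strands, was present in 4 of the 36 windows (11.1%) and in 6.42% of all 33469 windows. These 4 windows are printed 5′ to 3′ on the strand of the gene, with the E-box in capitals: Atg14 at chr15:23306766-23307065 (minus strand), Atg3 at chr11:69159231-69159530 (minus), Atg5 at chr20:49380585-49380884 (plus) and Vps11 at chr8:53595328-53595627 (minus).
Atg14: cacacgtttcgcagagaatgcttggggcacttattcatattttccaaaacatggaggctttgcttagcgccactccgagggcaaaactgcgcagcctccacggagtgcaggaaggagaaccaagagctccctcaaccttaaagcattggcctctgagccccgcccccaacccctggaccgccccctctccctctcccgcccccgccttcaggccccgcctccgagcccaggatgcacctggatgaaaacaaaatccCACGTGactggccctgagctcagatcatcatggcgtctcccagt
Atg3: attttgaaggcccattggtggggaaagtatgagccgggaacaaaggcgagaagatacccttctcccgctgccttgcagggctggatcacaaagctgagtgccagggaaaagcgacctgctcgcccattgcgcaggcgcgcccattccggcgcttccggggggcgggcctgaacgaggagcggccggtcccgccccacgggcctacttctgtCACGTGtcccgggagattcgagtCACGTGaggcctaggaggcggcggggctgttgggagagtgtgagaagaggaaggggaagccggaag
Atg5: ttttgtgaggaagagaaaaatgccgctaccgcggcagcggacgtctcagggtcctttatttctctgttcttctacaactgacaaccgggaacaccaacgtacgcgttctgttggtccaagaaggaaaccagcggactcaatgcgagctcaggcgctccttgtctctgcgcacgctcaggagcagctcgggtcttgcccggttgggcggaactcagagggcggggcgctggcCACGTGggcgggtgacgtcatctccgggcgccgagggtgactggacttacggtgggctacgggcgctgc
Vps11: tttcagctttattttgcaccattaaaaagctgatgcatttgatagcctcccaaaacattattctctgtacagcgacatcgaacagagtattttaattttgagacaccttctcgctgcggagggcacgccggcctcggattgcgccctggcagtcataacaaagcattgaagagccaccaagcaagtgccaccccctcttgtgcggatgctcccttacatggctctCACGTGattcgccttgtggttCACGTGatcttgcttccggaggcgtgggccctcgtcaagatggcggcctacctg
The first base of the E-box lay at -19 bases from the annotated start in Atg5, at 6 bases in Atg14, at -39 and -16 in Atg3 and at -25 and -4 in Vps11 (negative before the start). The extended form of this E-box, with GT before it and AC after it, was in 0 of the 36 windows and in 0.233% of all windows. The core of the antioxidant response element, TGACNNNGC on either strand, was in 7 windows (19.4%, against 12.1% of all), and the NF-kB consensus was in 5 (13.9%, against 7.51% of all), those of Atg101, Atg16l2, Optn, Sqstm1 and Tfe3. A match describes the letters of the window and is no evidence of binding. The full set of windows was not matched to the 36 in base composition or expression. Differences between these shares are therefore a description and show no enrichment. Of the 4 genes with an E-box, Atg14 was higher and Atg3 lower in LPS than in Control, and Atg5 and Vps11 did not pass the test, as described below.

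Between 32148519 and 39407116 gene-assigned reads stood behind each library. Values are FPKM, read fragments divided by gene length and by library depth, and differences are differences of log2(FPKM + 1) from limma-trend, which understate the change of genes with low values. Adjusted p-values are Benjamini-Hochberg values over the 11141 genes that reached 1 FPKM in at least 3 libraries, with a threshold of 0.05. Of the 12 dendritic cell markers, 9 reached 1 FPKM in at least 3 libraries, including Itgax, Cd74 and Irf8, while Flt3, Clec9a and Xcr1, markers of conventional dendritic cells, stayed below 1 FPKM in all 9. Relative to Control, 0 of the 9 detected markers passed as higher in LPS and 2 as lower. All 8 macrophage and monocyte markers were also detected, summing to 1543 to 1949 FPKM in LPS+EVs, 1283 to 1751 in LPS and 1195 to 1287 in Control, and in LPS 2 of them passed as higher and 4 as lower relative to Control. Neutrophil marker sums were 3.97 to 17.3 FPKM in LPS+EVs, 1.80 to 6.57 in LPS and 30.5 to 256 in Control, and erythroid sums were 3.67 to 8.79 FPKM in LPS+EVs, 4.88 to 9.58 in LPS and 54.0 to 437 in Control. All 7 stromal markers were present (123 to 808 FPKM in LPS+EVs, 84.8 to 676 in LPS, 143 to 454 in Control), and the B cell and T and NK cell lists stayed below 1 FPKM in sum. In LPS 2 of 4 tested neutrophil markers passed as lower, 1 of 2 tested erythroid markers as higher and 1 as lower, and 0 of 7 stromal markers in either direction. The part of these other cells in the results was not tested. The library numbered 2 of each group stood apart on the second principal component (21.0% of the variance): Cd74 was at 6102 FPKM in LPS+EVs, 5855 in LPS and 6137 in Control in the libraries numbered 2, and at 939 to 2550 FPKM in the other 6.

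In the untreated and treated cells alike, the pathway was expressed at widely different levels. Sqstm1, the cargo receptor p62, averaged 617 FPKM over the 9 libraries, Gabarap averaged 557 and Gabarapl1 averaged 101, and these were the 3 genes at 100 FPKM or more. Another 22 genes averaged between 10 and 100 FPKM and 13 between 1 and 10. The 2 genes below 1 FPKM were Atg9b, the second Atg9 paralog, with 2 to 25 reads per library, and Atg10, the E2-like enzyme for Atg12, with 81 to 300 reads. Atg9b ranged from 0.0394 to 0.146 FPKM in LPS+EVs, from 0.0502 to 0.133 in LPS and from 0.0124 to 0.0522 in Control, and Atg10 ranged from 0.15 to 0.320 FPKM in LPS+EVs, from 0.15 to 0.521 in LPS and from 0.297 to 0.318 in Control. Neither was tested. The other 38 genes were at 1.91 FPKM or more in all 9 libraries and at 386 reads or more, so none of them entered the test through 1 group alone.

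**Figure D1:**
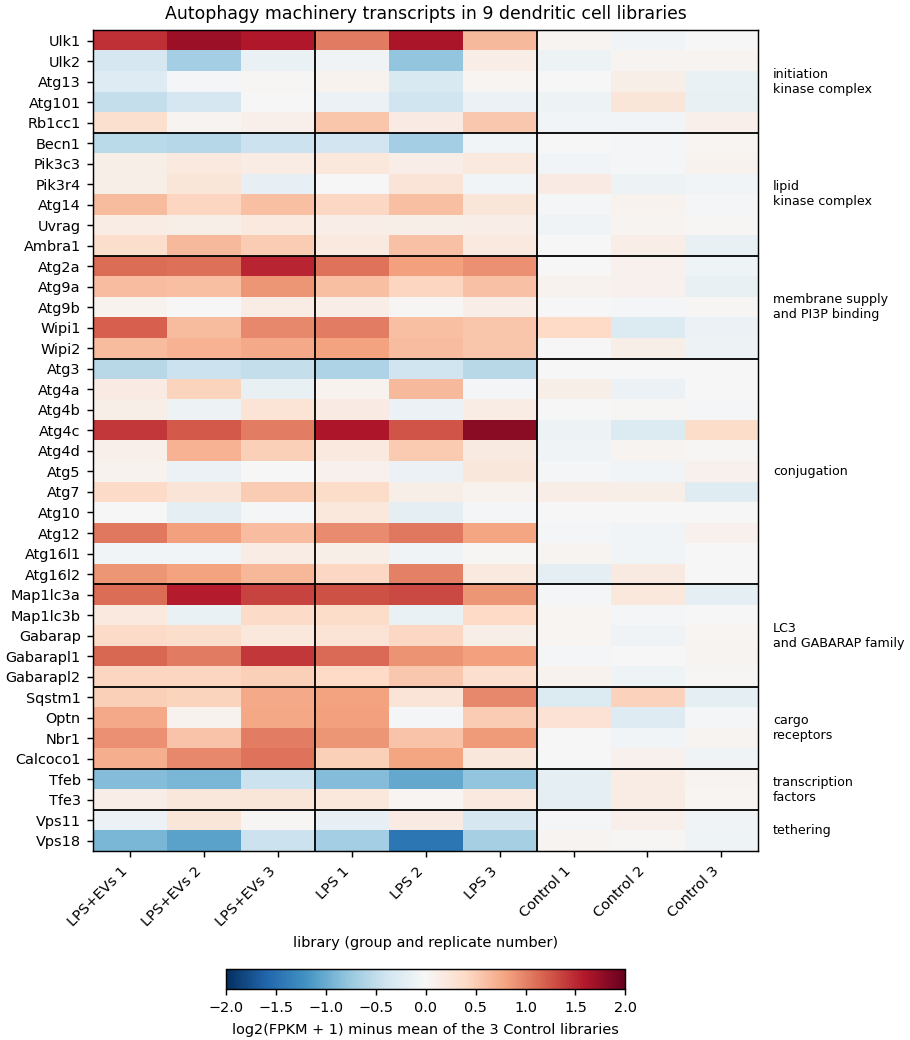
Levels of the 40 autophagy machinery genes (rows, grouped by role) in the 9 libraries (columns), as log2(FPKM + 1) minus the mean of the 3 Control libraries. Red is higher and blue lower than the Control mean; Ulk1, Atg2a, Atg4c, Map1lc3a and Gabarapl1 are red in all 6 LPS+EVs and LPS libraries, and Atg3, Tfeb and Vps18 are blue in all 6.

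LPS was set against Control to compare the pathway's transcripts after 24 h with endotoxin. Relative to Control, 13 of the 38 passed as higher in LPS and 3 as lower, 34.2% and 7.89% of them, against 12.3% (higher) and 28.7% (lower) of all tested genes. The genes that rose were Ulk1, Atg14, Atg2a, Atg9a, Wipi1, Wipi2, Atg4c, Atg12, Map1lc3a, Gabarapl1, Gabarapl2, Nbr1 and Calcoco1, and those that fell were Atg3, Tfeb and Vps18. The median difference was 0.29 on the log2 scale for the 38 genes and -0.19 for all tested genes. In 20 of the 38 genes (52.6%) every LPS library was above every Control library, which held for 17.5% of all tested genes, and in 4 (10.5%) every LPS library was below, which held for 37.6%. In bulk RNA, fewer cells of a type and less RNA per cell cannot be told apart.

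In the comparison of LPS+EVs with Control, which shares the Control libraries with the one before, 15 genes were higher and 4 lower (39.5% and 10.5%), against 13.5% and 30.8% of all tested genes. These were the 16 genes named above, with Ambra1 and Atg16l2 higher and Becn1 lower beside them. The median difference was 0.35 for the 38 genes and -0.19 for all tested genes. LPS+EVs and Control did not overlap in 20 genes that were higher (52.6%, against 19.6% of all) and 5 that were lower (13.2%, against 40.6%).

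The deposited scaling bears on these directions. With median-of-ratios scaling the median of all tested genes moved to -0.003 in LPS against Control and to -0.002 in LPS+EVs against Control, a shift of about 0.19, and the calls over all genes became 1893 higher and 2332 lower in LPS, against 1368 and 3201 with the deposited scaling. The 38 genes then gave 17 higher and 2 lower in LPS (17.0% and 20.9% of all genes), and 23 higher and 2 lower in LPS+EVs (18.6% and 22.5%). With the replicate number as a block they gave 17 higher and 4 lower in LPS (17.2% and 35.5% of all genes) and 18 and 4 in LPS+EVs (17.8% and 37.4%), and with block and scaling combined 23 and 2 in both (24.1% and 26.1% of all genes in LPS, 25.2% and 27.4% in LPS+EVs). limma-voom on recovered reads gave 22 and 2 in LPS (18.8% and 20.6%) and 26 and 2 in LPS+EVs (20.2% and 21.8%). Under these settings every gene named above as higher kept its call, and the calls lost were those of Atg3 in both comparisons and Becn1 in LPS+EVs. Median-of-ratios scaling added Rb1cc1, Map1lc3b, Sqstm1 and Optn as higher in both comparisons, and Atg4d, Atg7, Gabarap and Tfe3 in LPS+EVs. Without the libraries numbered 2 the counts were 13 higher and 3 lower in LPS (16.3% and 26.8% of all genes), with 12 of the 16 genes called as before, and 17 higher and 4 lower in LPS+EVs (16.7% and 29.9%), with 19 of 19. Lost in LPS were Atg14, Wipi1, Gabarapl2 and Calcoco1 (adjusted p = 0.0727, 0.0579, 0.055 and 0.0907 in limma), and gained were Rb1cc1, Map1lc3b, Sqstm1 and Optn.

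**Figure D2:**
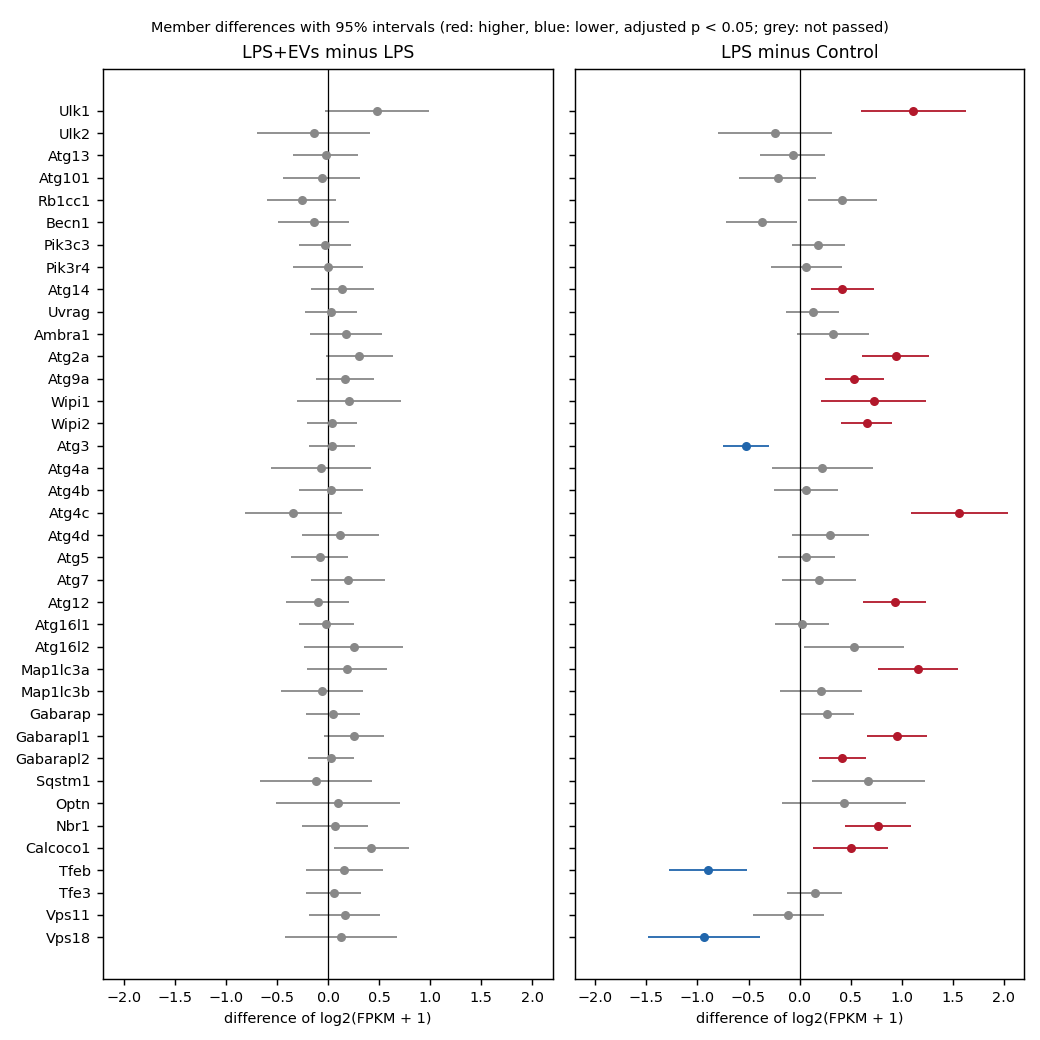
Differences of log2(FPKM + 1) for the 38 tested genes in LPS+EVs minus LPS (left) and LPS minus Control (right), with points at the limma estimate and bars for its 95% interval. Red points (13, right panel) passed as higher and blue points (3, right panel) as lower at an adjusted p under 0.05; all 38 points of the left panel are grey and lie between -0.34 and 0.48.

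Among the 5 genes of the initiation kinase complex, 1 rose in LPS and none fell. Ulk1, the kinase that starts autophagosome formation, was at 13.5, 16.2 and 15.0 FPKM in LPS+EVs, at 9.86, 15.4 and 7.27 in LPS and at 4.47, 4.09 and 4.24 in Control, in the order of the replicate numbers. All 6 treated libraries lay above Control, and the LPS libraries spread the most, with the library numbered 2 highest. The difference was 1.11 in LPS (SE 0.225, adjusted p = 0.0051, limma) and 1.59 in LPS+EVs (SE 0.225, adjusted p = 0.000894), both against Control. Its paralog Ulk2 averaged 5.41 ± 1.21 FPKM in LPS+EVs, 6.25 ± 2.21 in LPS and 7.27 ± 0.510 in Control (SD, n = 3 each) and did not pass. The ratio of Ulk1 to Ulk2, which library scaling does not change, was therefore 2.88 ± 0.908 in LPS+EVs, 2.13 ± 1.69 in LPS and 0.590 ± 0.069 in Control, and every treated library was above every Control library. The scaffold Rb1cc1 (FIP200) was at 8.33 ± 0.950, 10.2 ± 1.66 and 7.33 ± 0.533 FPKM in LPS+EVs, LPS and Control. Its difference of 0.42 in LPS missed the threshold in limma (adjusted p = 0.0508) and passed it with median-of-ratios scaling (0.00562), with the replicate number as a block (0.0297) and without LPS replicate 2 (0.0135), in a range of 0.00369 to 0.15 over all alternatives. Atg13 and Atg101, the adaptor subunits, differed from Control by -0.07 and -0.21 in LPS and did not pass.

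Of the 6 genes of the lipid kinase complex, Atg14, the subunit that directs the complex to forming autophagosomes, rose in LPS. It was at 5.58, 4.69 and 5.43 FPKM in LPS+EVs, 4.65, 5.38 and 4.0 in LPS and 3.13, 3.43 and 3.11 in Control, without overlap between treated and Control libraries. Its difference was 0.42 in LPS (adjusted p = 0.0372, limma) and 0.56 in LPS+EVs (adjusted p = 0.0108). The call in LPS ended when any 1 of Control replicates 1, 2 and 3, LPS replicates 1 and 2 or LPS+EVs replicates 1 and 3 was left out (adjusted p = 0.0505 to 0.11), while the call in LPS+EVs held under every alternative (0.00421 to 0.0436). Becn1, the Beclin 1 subunit, went the other way: 26.2, 25.8 and 28.3 FPKM in LPS+EVs, 29.5, 23.7 and 37.2 in LPS and 38.6, 37.6 and 39.8 in Control. All treated libraries lay below Control, although LPS replicate 3 was close to it. The fall of 0.52 in LPS+EVs passed (adjusted p = 0.0247, limma), but not with median-of-ratios scaling (0.0808) or without any 1 of the 3 Control libraries or LPS+EVs replicates 1 and 2 (0.0556 to 0.0764), and its range over all alternatives was 0.00525 to 0.102. In LPS the difference of -0.37 did not pass (adjusted p = 0.0819), but did with the replicate block (0.0407) and without LPS replicate 3 (0.0138). Ambra1, a positive regulator of Beclin 1, was at 11 ± 1.25, 9.69 ± 1.74 and 7.49 ± 0.834 FPKM in LPS+EVs, LPS and Control, and its difference of 0.50 in LPS+EVs passed (adjusted p = 0.0282). That call ended without Control replicate 1 or 3 or LPS+EVs replicate 2 or 3 (0.0633 to 0.101). The catalytic subunit is Pik3c3 (Vps34), its partner is Pik3r4 (Vps15), and Uvrag takes the place of Atg14 in a second form of the complex. These genes differed from Control by 0.07 to 0.18 in LPS and by 0.07 to 0.15 in LPS+EVs, and none passed in limma-trend. For Pik3c3 and Uvrag every treated library was above every Control library. In limma-voom, Pik3c3 (adjusted p = 0.0186 in LPS and 0.0222 in LPS+EVs) and Uvrag (0.0212 and 0.012) passed as higher, and Pik3r4 did not (0.284 and 0.246).

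The 4 tested genes for membrane supply and PI3P binding all rose in both comparisons with Control. Atg2a, which moves lipids into the growing membrane, was at 25.3, 25.1 and 33.9 FPKM in LPS+EVs, 24.8, 20.5 and 21.9 in LPS and 11.2, 11.9 and 10.4 in Control. The treated libraries lay well above Control, and every LPS+EVs library was above every LPS library. Its difference was 0.94 in LPS (SE 0.143, adjusted p = 0.00129, limma) and 1.25 in LPS+EVs (adjusted p = 0.000312). Atg9a, the lipid scramblase of the Atg9 vesicles, averaged 22.4 ± 2.61, 19.8 ± 1.34 and 13.3 ± 1.26 FPKM in LPS+EVs, LPS and Control, with differences of 0.54 in LPS (adjusted p = 0.00999) and 0.70 in LPS+EVs (adjusted p = 0.0027). The PI3P-binding protein Wipi2, which recruits Atg16l1 to the membrane, averaged 39.8 ± 1.66, 38.9 ± 3.71 and 24.3 ± 1.87 FPKM in LPS+EVs, LPS and Control and rose by 0.66 in LPS (adjusted p = 0.00202) and 0.69 in LPS+EVs (adjusted p = 0.00153). Its relative Wipi1 was at 18.8, 12.4 and 15.8 FPKM in LPS+EVs, 16.5, 12.1 and 11.8 in LPS and 10.4, 6.13 and 6.94 in Control. Here the library numbered 1 was the highest of each group, and the difference of 0.73 in LPS had an adjusted p of 0.0311 in limma and of 0.00193 with the replicate block. Leaving out Control replicate 2 or 3 or LPS replicate 1 ended the call (0.097 to 0.105). The difference of 0.93 in LPS+EVs passed at 0.0105.

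**Figure D3:**
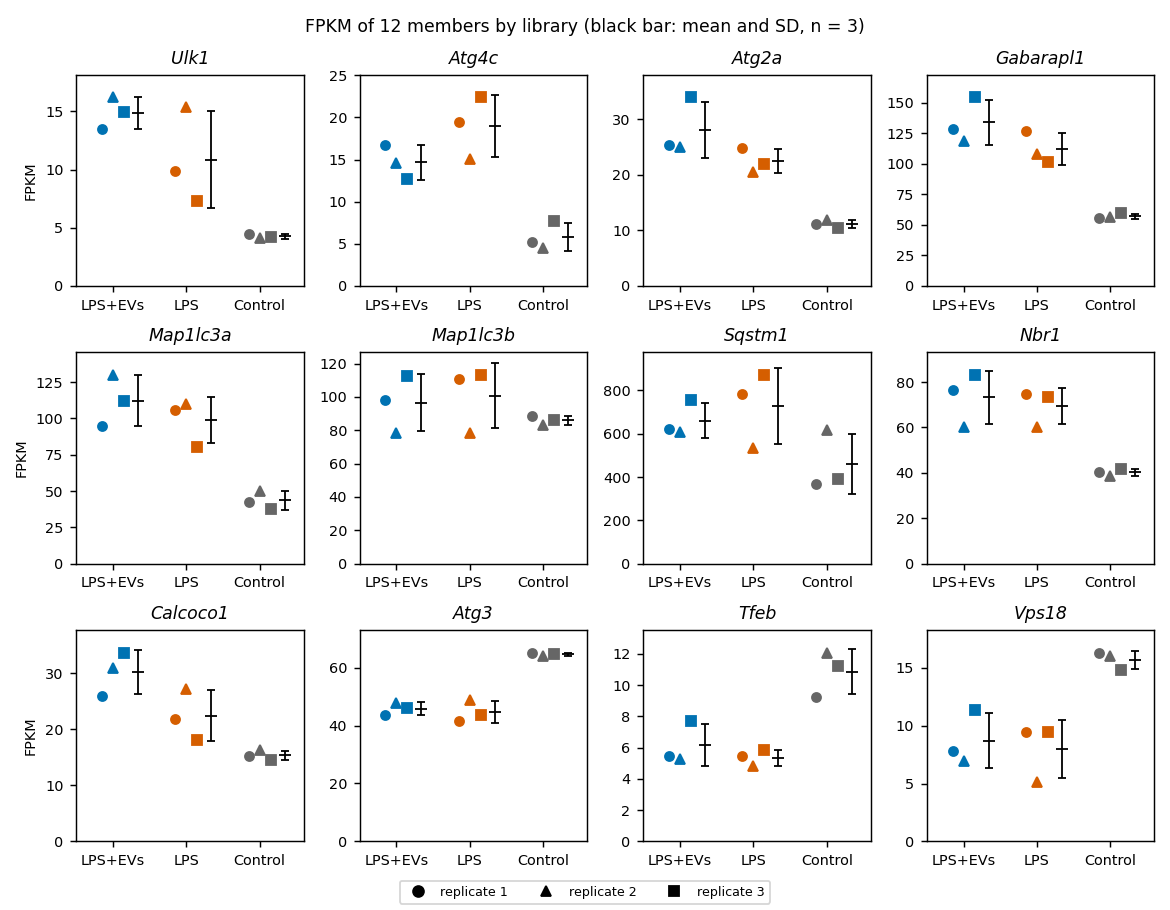
FPKM of 12 genes in each library, with LPS+EVs at the left, LPS in the middle and Control at the right of each panel; circles, triangles and squares are replicates 1, 2 and 3, and black bars are the mean and SD (n = 3). Ulk1, Atg4c, Atg2a, Gabarapl1, Map1lc3a and Nbr1 do not overlap between treated and Control libraries, Atg3, Tfeb and Vps18 lie below Control, and Map1lc3b and Sqstm1 overlap with it.

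The 10 tested conjugation genes did not move together: 2 rose and 1 fell in LPS, and 3 rose and 1 fell in LPS+EVs. Atg4c, a protease of the family that trims LC3 and GABARAP precursors and releases them from membranes, was at 16.8, 14.6 and 12.6 FPKM in LPS+EVs, 19.5, 15.0 and 22.4 in LPS and 5.20, 4.54 and 7.65 in Control. Treated libraries lay far above Control. The difference of 1.56 in LPS (SE 0.209, adjusted p = 0.00067, limma) was the largest of the 38 genes, and it was 1.22 in LPS+EVs (adjusted p = 0.00218). The other proteases of the family did not pass in LPS, with differences of 0.22 for Atg4a, 0.06 for Atg4b and 0.30 for Atg4d. In LPS+EVs Atg4d differed by 0.42 (adjusted p = 0.0679, and 0.0239 with the replicate block). The annotated Atg4d locus overlaps that of Kri1 (10.4 FPKM on average), and how the counting treated strand is not given in the sources used here, so its values are uncertain.

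Atg12, the ubiquitin-like protein that is joined to Atg5, was at 37.2, 31.4 and 27.0 FPKM in LPS+EVs, 34.5, 37.1 and 30.6 in LPS and 17.0, 16.7 and 18.4 in Control. It rose by 0.93 in LPS (adjusted p = 0.00107, limma) and 0.83 in LPS+EVs (adjusted p = 0.00182), while its partner Atg5 differed by 0.07 in LPS and -0.02 in LPS+EVs and did not pass. Atg3, the E2-like enzyme that hands LC3 to its lipid, went down: 43.5, 47.9 and 46.1 FPKM in LPS+EVs, 41.6, 48.9 and 43.6 in LPS and 65.1, 64.1 and 64.5 in Control. All treated libraries were below Control, by 0.52 in LPS (adjusted p = 0.0035) and 0.49 in LPS+EVs (adjusted p = 0.0046). With median-of-ratios scaling, these falls were 0.31 and 0.26 and did not pass (0.144 in LPS and 0.206 in LPS+EVs). The E1-like Atg7 averaged 4.03 FPKM in LPS+EVs, 3.40 in LPS and 2.88 in Control and differed by 0.19 in LPS and 0.38 in LPS+EVs without passing. Atg16l1, which places the Atg12 and Atg5 conjugate on the membrane, differed by 0.02 and 0.01. Its paralog Atg16l2 was at 4.68 ± 0.411, 3.91 ± 1.5 and 2.31 ± 0.417 FPKM in LPS+EVs, LPS and Control. In LPS+EVs the difference of 0.78 passed (adjusted p = 0.0175), but not without Control replicate 1 or 3 or LPS+EVs replicate 1 (0.0546 to 0.0691), and in LPS the difference of 0.53 did not pass (0.0764), but did with the replicate block (0.0347), in limma-voom (0.0492) and without LPS replicate 3 (0.0313), in a range of 0.018 to 0.218.

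The LC3 and GABARAP proteins are conjugated to the membrane and hold cargo receptors there, and 3 of the 5 genes rose in LPS and in LPS+EVs. Map1lc3a (LC3A) was at 94.9, 130 and 112 FPKM in LPS+EVs, 106, 110 and 80.7 in LPS and 42.7, 50.4 and 37.7 in Control. The groups did not overlap with Control, and the difference was 1.16 in LPS (SE 0.173, adjusted p = 0.00116, limma) and 1.34 in LPS+EVs (adjusted p = 0.000568). Gabarapl1 was at 129, 119 and 154 FPKM in LPS+EVs, 127, 108 and 102 in LPS and 55.4, 56.8 and 59.4 in Control, again without overlap. It rose by 0.95 in LPS (SE 0.129, adjusted p = 0.000728) and 1.21 in LPS+EVs (adjusted p = 0.000212). Gabarapl2 (GATE-16) rose less, by 0.42 in LPS (adjusted p = 0.011) and 0.45 in LPS+EVs (adjusted p = 0.0075), with means of 34.9 ± 0.798, 34.3 ± 2.6 and 25.4 ± 1.48 FPKM in LPS+EVs, LPS and Control.

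Map1lc3b (LC3B), the form most often followed as an autophagosome marker, was at 98.2, 78.5 and 113 FPKM in LPS+EVs, 111, 78.1 and 113 in LPS and 88.4, 83.3 and 86.1 in Control. The library numbered 2 was below Control in both treated groups and the others above it, and the difference of 0.21 in LPS did not pass (adjusted p = 0.371, limma). It passed with median-of-ratios scaling (0.0225) and without the libraries numbered 2 (0.046), in a range of 0.0104 to 0.668 over all alternatives. Gabarap was at 633, 619 and 558 FPKM in LPS+EVs, 585, 645 and 523 in LPS and 494, 458 and 497 in Control. Its libraries did not overlap with Control, but the differences of 0.27 in LPS (adjusted p = 0.0911) and 0.32 in LPS+EVs (adjusted p = 0.0505) missed the threshold. In LPS+EVs it passed with median-of-ratios scaling (0.0365), with the replicate block (0.0419) and without LPS replicate 2 or 3 or LPS+EVs replicate 3 (0.0354 to 0.0491), and in LPS it passed in limma-voom (0.032) and without LPS replicate 3 (0.049).

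Because FPKM is per length, levels within the family can be added. The 5 genes summed to 981 ± 8.17 FPKM in LPS+EVs, 930 ± 69.4 in LPS and 695 ± 19.8 in Control (SD, n = 3 each). Gabarap made up 61.5%, 62.8% and 69.5% of the sum in LPS+EVs, LPS and Control, Map1lc3b 9.84%, 10.9% and 12.4%, Gabarapl1 13.7%, 12% and 8.23%, Map1lc3a 11.4%, 10.6% and 6.29%, and Gabarapl2 3.56%, 3.69% and 3.65%. The shares of Map1lc3a and Gabarapl1 were higher, and that of Gabarap lower, in every treated library than in every Control library. These shares do not depend on library scaling and are given as a description. The ratio of Map1lc3a to Map1lc3b was 1.20 ± 0.391 in LPS+EVs, 1.02 ± 0.353 in LPS and 0.509 ± 0.0867 in Control.

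**Figure D4:**
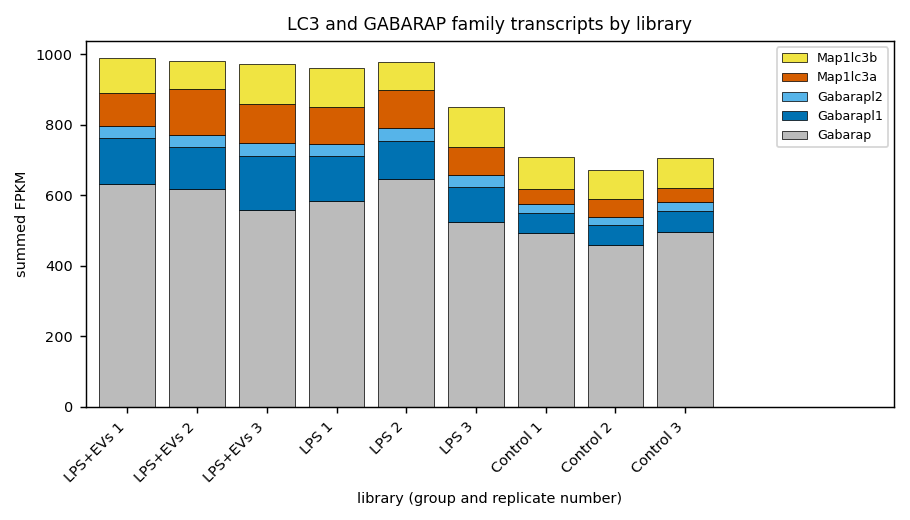
Summed FPKM of the 5 LC3 and GABARAP family genes in each library, stacked by gene (bars start at 0). The sum is 851 to 989 FPKM in the 6 LPS+EVs and LPS libraries and 672 to 707 FPKM in the 3 Control libraries, and Gabarap is the largest part of every bar.

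Among the 4 cargo receptors, Nbr1 and Calcoco1 rose in both comparisons with Control. Nbr1, a receptor for ubiquitinated cargo, was at 76.3, 60.3 and 83.1 FPKM in LPS+EVs, 74.6, 60.2 and 73.2 in LPS and 40.2, 38.6 and 41.9 in Control. The library numbered 2 was lowest in each group, yet all treated libraries lay above Control, with differences of 0.76 in LPS (SE 0.142, adjusted p = 0.00345, limma) and 0.84 in LPS+EVs (adjusted p = 0.00213). Calcoco1, a receptor that takes endoplasmic reticulum into autophagosomes, was at 26.0, 30.9 and 33.7 FPKM in LPS+EVs, 21.8, 27.2 and 18.2 in LPS and 15.2, 16.3 and 14.6 in Control. It rose by 0.50 in LPS (adjusted p = 0.0356) and 0.93 in LPS+EVs (adjusted p = 0.00234). The call in LPS ended without any 1 of the 3 Control libraries or LPS replicates 1 and 2 (0.0647 to 0.107).

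Sqstm1, the most abundant of the 40 transcripts, was at 622, 607 and 754 FPKM in LPS+EVs, 782, 534 and 872 in LPS and 370, 618 and 391 in Control. Control replicate 2 lay above LPS replicate 2 and LPS+EVs replicate 2, so the groups overlapped, and within the libraries numbered 1 and 3 the treated ones were all higher. Differences of 0.67 in LPS and 0.55 in LPS+EVs did not pass (adjusted p = 0.053 and 0.093, limma). In LPS the adjusted p was 0.0137 with median-of-ratios scaling, 0.0498 with the replicate block, 0.0193 without Control replicate 2, 0.017 without LPS replicate 2 and 0.00174 without all libraries numbered 2, in a range of 0.00174 to 0.174 over all alternatives. In LPS+EVs it was 0.0284 without Control replicate 2 and 0.0492 without LPS replicate 2, in a range of 0.00438 to 0.267. Optn (optineurin), a receptor in mitochondrial and bacterial autophagy, was at 52.3, 32.2 and 53.1 FPKM in LPS+EVs, 54.7, 30.1 and 44.0 in LPS and 37.5, 25.6 and 30.0 in Control. The library numbered 2 was lowest in each group, and within each number the treated libraries were above Control. Its differences of 0.43 in LPS and 0.53 in LPS+EVs did not pass (adjusted p = 0.223 and 0.135) but did with the replicate block (0.0196 and 0.00769) and with median-of-ratios scaling (0.0362 and 0.0182).

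The transcription factors Tfeb and Tfe3, which switch on lysosomal and autophagy genes when they enter the nucleus, differed in their transcripts. Tfeb was at 5.48, 5.28 and 7.72 FPKM in LPS+EVs, 5.44, 4.80 and 5.82 in LPS and 9.27, 12.1 and 11.2 in Control. All treated libraries were below Control, and Tfeb fell by 0.90 in LPS (SE 0.167, adjusted p = 0.0035, limma) and by 0.74 in LPS+EVs (adjusted p = 0.00784), calls that held under every alternative (0.00188 to 0.0181 in LPS and 0.0042 to 0.0401 in LPS+EVs). Tfe3 averaged 27.4 ± 1.11 FPKM in LPS+EVs, 26.3 ± 1.86 in LPS and 23.7 ± 2.87 in Control and did not pass in LPS (0.15, adjusted p = 0.341) or LPS+EVs (0.20, adjusted p = 0.191). The ratio of Tfe3 to Tfeb was 4.56 ± 0.837, 4.93 ± 0.203 and 2.19 ± 0.0385 in LPS+EVs, LPS and Control.

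Vps11 and Vps18 are core subunits shared by the HOPS and CORVET complexes, which tether membranes before they fuse with endosomes and lysosomes. Vps18 was at 7.80, 6.90 and 11.4 FPKM in LPS+EVs, 9.42, 5.12 and 9.46 in LPS and 16.3, 16.0 and 14.8 in Control. Every treated library was below Control, and Vps18 fell by 0.93 in LPS (SE 0.241, adjusted p = 0.0153, limma) and by 0.81 in LPS+EVs (adjusted p = 0.0248). The call in LPS ended without Control replicate 1 (0.0539), and that in LPS+EVs without any 1 of the 3 Control libraries or LPS+EVs replicates 1 and 2 (0.0578 to 0.0814) and with no filter on low values (0.0513). Vps11 averaged 27.8 ± 3.65, 24.8 ± 4.64 and 26.6 ± 1.69 FPKM in LPS+EVs, LPS and Control, with differences of -0.11 in LPS and 0.05 in LPS+EVs that did not pass.

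The comparison of LPS+EVs with LPS asks what differed when vesicles were added to LPS, with the use of the unnamed agent in these 2 groups not stated. No autophagy gene passed, and neither did any of the 11141 tested genes (0.0%) in limma-trend, in limma with median-of-ratios scaling, with the replicate block or in limma-voom. At an unadjusted p under 0.05 there were 1 of the 38 genes and 295 of all tested genes (2.65%). That gene was Calcoco1, with a difference of 0.42 (95% interval 0.06 to 0.79, adjusted p = 0.999, limma). Directions within replicate numbers are not given for this comparison. The labels give no meaning to the numbers, and the shares over all tested genes were not computed. Ulk1 had the largest difference, 0.48 (-0.03 to 0.99), followed by Calcoco1 and Atg2a, at 0.31 (-0.02 to 0.63), and the lowest were Atg4c, at -0.34 (-0.82 to 0.13), and Rb1cc1, at -0.26 (-0.59 to 0.08). The median was 0.04 for the 38 genes and -0.01 for all tested genes. In 2 genes, Atg2a and Atg9a, every LPS+EVs library was above every LPS library (5.26%, against 3.14% of all tested genes), and in 0 every one was below (3.48% of all).

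With 3 libraries a group, the spread between libraries set how small a difference between LPS+EVs and LPS could be seen. The intervals come from the fit without a replicate term and so include the spread between replicate numbers. LPS and LPS+EVs libraries that share a number correlated at 0.65 to 0.86 after removal of group means. Intervals with the replicate block are not given here. All 38 intervals of LPS+EVs minus LPS lay inside a 2-fold change in either direction on the log2(FPKM + 1) scale, with outer limits of -0.82 and 0.99, and 27 lay inside a 1.5-fold change. Beside Atg4c, Ulk1 and Atg2a above, the interval was -0.21 to 0.58 for Map1lc3a, -0.04 to 0.55 for Gabarapl1, -0.41 to 0.21 for Atg12, -0.25 to 0.40 for Nbr1, -0.22 to 0.54 for Tfeb and -0.43 to 0.67 for Vps18. Sqstm1, at -0.12 (-0.67 to 0.43), and Optn, at 0.10 (-0.51 to 0.70), had some of the widest intervals. A p above the threshold does not show that the levels were equal.

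Autophagy genes outside the 40 were read from lists of 76 textbook names, of which 75 were in the table and 73 were tested. Relative to Control, 11 of the 73 passed as higher in LPS and 10 as lower (15.1% and 13.7%, against 12.3% and 28.7% of all tested genes), with a median of 0.03 beside -0.19 for all. In LPS+EVs 11 passed as higher and 12 as lower (15.1% and 16.4%, against 13.5% and 30.8% of all), with a median of -0.01 beside -0.19. Of the 73 genes 70 were at 1 FPKM or more in all 9 libraries, and the others were Stx17, Prkag2 and Deptor. Deptor entered the test through the Control libraries alone and is among the genes counted here as lower in both comparisons. None passed in LPS+EVs against LPS. With median-of-ratios scaling the counts against Control were 21 higher and 6 lower in LPS (17.0% and 20.9% of all tested genes) and 20 higher and 6 lower in LPS+EVs (18.6% and 22.5% of all). Of 8 genes for lipid transfer and the early membrane, Zfyve1 (DFCP1, an omegasome marker) rose in LPS, by 0.76 (adjusted p = 0.00469, limma), and none fell. Among 14 other receptors, Tollip rose by 0.46 (adjusted p = 0.0117), the mitophagy receptor Bnip3 was at 142 ± 62.0 FPKM in LPS and 45.9 ± 20.5 in Control (1.61, adjusted p = 0.0274), and Phb2, the inner mitochondrial membrane protein that can bind LC3, fell by 1.24 (adjusted p = 0.000953). The call of Tollip ended without Control replicate 1 (0.0537), and that of Bnip3 without Control replicate 2 (0.0871), LPS replicate 1 (0.0865) or LPS replicate 3 (0.0755) and with no filter on low values (0.0651). Differences of named companion genes, here and below, are those of LPS against Control. In LPS+EVs against Control, Bnip3 did not pass (adjusted p = 0.0832, limma, and 0.0392 without LPS replicate 2). Tex264, Fundc1 and Retreg1 passed in that comparison alone (0.0259, 0.0179 and 0.041). Each of these calls ended when some single libraries were left out.

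For fusion with lysosomes, 3 of 13 genes rose and 4 fell in LPS (23.1% and 30.8%), the share that fell being near the 28.7% of all tested genes. Fyco1, which links autophagosomes to microtubule motors, rose by 0.79 (adjusted p = 0.0011, limma), while the SNARE Snap29 fell by 1.03 (adjusted p = 0.00738) and Vps16, the HOPS core subunit, fell by 0.59 (adjusted p = 0.00924, and 0.066 with median-of-ratios scaling). Of 29 genes of nutrient control, 5 rose and 4 were lower in LPS (17.2% and 13.8%, against 12.3% and 28.7% of all tested genes). Deptor, an mTOR inhibitor, is among these 4 lower genes, but it reached 1 FPKM in Control libraries alone and entered the test through them. Its levels of 0.392 ± 0.169 FPKM in LPS+EVs, 0.289 ± 0.190 in LPS and 4.13 ± 0.958 in Control are therefore given as a description. Lamtor2, a subunit of the lysosomal Ragulator, fell by 0.83 (adjusted p = 0.00283). The Rag GTPase gene Rragd rose by 1.10 (adjusted p = 0.00312), and Ddit4 (REDD1), a stress-induced inhibitor of mTORC1, was at 39.6 ± 9.98 FPKM in LPS and 12.7 ± 5.40 in Control (1.63, adjusted p = 0.00404). Among 9 genes of transcription control, Ppp3cb, a catalytic subunit of calcineurin, which activates Tfeb, fell by 0.70 (adjusted p = 0.00145), and none rose.

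The library numbered 2 was the lowest of its group in all 3 groups for 8 of the 40 genes (Rb1cc1, Becn1, Atg9b, Atg5, Atg10, Map1lc3b, Optn and Nbr1) and the highest in all 3 for 4 (Ambra1, Atg4d, Map1lc3a and Vps11). Atg9b and Atg10 were below 1 FPKM. The shares over all tested genes were not computed, so these counts are no trait of the autophagy genes. The libraries numbered 2 had higher MHC class II and Irf8 transcripts and lower stromal ones, and the part of this in the values was not tested. On GRCr8, 15 of the 40 loci overlap another annotated gene, and 7 overlap one that is in the table. Besides Atg4d and Kri1, the abundant neighbour was Rpl29, which averaged 564 FPKM and overlaps Pik3r4, so the level of Pik3r4 is uncertain. How reads that match several places were counted is not given in the sources used here.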

How the data were processed

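The authors deposited FPKM values (fragments per kilobase of gene, scaled to assigned reads) of 20442 genes in 9 libraries. Per the submitters' processing notes, reads were handled with HISAT2, fastp and HTSeq on mRatBN7.2, with R 3.2.0, and settings are not given in the sources used here. Gene symbols were used as deposited. Whole reads recovered from the FPKM steps (100% of 18833 genes seen in 2 or more libraries, within 0.002 reads) gave depths of 32148519 to 39407116 reads, at which 3 reads in 1 kilobase are 0.0761 to 0.0933 FPKM (counting error only).

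limma-trend (limma 3.58.1, R 4.3.3) was run on log2(FPKM + 1) over all 9 libraries with 1 mean per group, for genes at 1 FPKM or more in 3 libraries, two-sided, and was tested on simulated data. Alternatives were median-of-ratios scaling, other filters, a pseudocount of 0.1, the 6 compared libraries, the replicate block, leaving out each library and numbers 1 and 3 alone; limma-voom on recovered reads and the block with median-of-ratios scaling were chosen after seeing the data. The reported fit has no replicate term. The numbers met the criterion for pairing, so values with the block are given where they change a call: libraries sharing a number correlated at 0.28 to 0.86 after removal of group means, others at -0.74 to 0.43. Genes that passed, the LC3 and GABARAP family and the cargo receptors were named with values, as were at most 4 companion genes per list with the smallest adjusted p; other names complete a role. Members, lists and motifs were chosen with earlier results of these data known. Overlaps between loci and promoter windows were read from RefSeq on GRCr8. Tables and figures used matplotlib 3.10.9, numpy 2.4.6, pandas 2.3.3 and Python 3.11.15.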

Additional observations from a re-analysis of the deposited data

How the results depend on the processing

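No member difference changed sign past the threshold under any alternative run. In LPS against Control, the members' median was 0.50 with median-of-ratios scaling, alone or with the replicate block, and 0.52 in limma-voom, against 0.29 in the planned fit. Members higher numbered 23 and 22, and all genes higher 2685 and 2092, under block and scaling combined and in limma-voom. In LPS+EVs against Control, members higher were 23 with median-of-ratios scaling, with or without the block, and 26 in limma-voom, members lower were 2 in each of these, medians were 0.55, 0.55 and 0.62, and all genes higher were 2809 with the block and that scaling. The replicate block alone gave 17 higher and 4 lower members (1912 and 3950 of all genes) in LPS and 18 and 4 (1984 and 4162) in LPS+EVs, both against Control, and 0 in LPS+EVs against LPS. It changed the calls of no members beyond those named with their blocked values in the report. Without each replicate in turn, members higher ranged from 10 to 15 and lower from 2 to 4 in LPS (median 0.22 to 0.36, all genes 891 to 1496 higher and 1884 to 3185 lower). The ranges in LPS+EVs against Control were 13 to 18 and 2 to 4 (median 0.29 to 0.36, all genes 1045 to 1789 and 2194 to 3987). In LPS+EVs against LPS they were 0 members in each direction (median 0.01 to 0.07), with 1 of all genes higher without LPS replicate 2 and 0 otherwise. No filter on low values left 10 members higher in LPS, with Atg14, Wipi1 and Calcoco1 lost (adjusted p = 0.0679, 0.0616 and 0.0571), and the 6 compared libraries alone left 11, with Atg14 and Calcoco1 lost (0.066 and 0.0547); the cause was not tested. With 3 libraries a group and no replicate term, intervals in LPS+EVs against LPS had outer limits of -0.82 and 0.99 on the log2 scale.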
